A study of Mus musculus with 8 samples.

Results

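The genes examined here are the 9 G protein alpha subunit genes Gnas, Gnal, Gnai1, Gnai2, Gnai3, Gnao1, Gnaz, Gnaq and Gna11, out of 17362 genes in a single nucleus RNA-seq table of mouse pancreatic islets. They were chosen by name as the Gs, Gi, Go, Gz and Gq class subunits, and they were selected with their measured levels by cell type and their responses to treatment already known, so that every level and response below is a description and not a test. Islets came from wild type (WT) mice and from mice with a whole-body knock-in of Med14 S983A, a serine to alanine exchange in the scaffold subunit of the Mediator complex (called mutant below). Hand picked islets of each genotype were cultured without drug (CON), with forskolin (FSK, which activates adenylyl cyclase directly; 16 h, at a dose the labels do not give) or with Exendin-4 (Ex-4, a peptide that activates the GLP-1 receptor; 10 nM, 16 h). Nuclei of about 100 islets per condition were sorted, fixed and barcoded in split pools, with the 6 conditions in separate wells of the first barcoding plate and nuclei of all 6 in each of 8 sublibraries. The deposited table has 54 columns, which hold 1 pooled value per gene for every pairing of the 6 conditions with 9 cell types. There are thus no replicates, no test was run, and condition cannot be told apart from islet preparation or barcode well.

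A G protein alpha subunit binds GTP when a receptor is activated, separates from its beta and gamma partners, and acts on an effector until it hydrolyses the GTP. The subunits encoded by Gnas (Gs) and Gnal (Golf, the form known from olfactory neurons and striatum) stimulate adenylyl cyclase and raise cAMP. Those encoded by Gnai1, Gnai2, Gnai3, Gnao1 and Gnaz inhibit cyclase or signal through the released beta and gamma subunits, and those of Gnaq and Gna11 activate phospholipase C beta. In beta cells the GLP-1 receptor couples to Gs, muscarinic receptors couple to Gq, and somatostatin and adrenergic receptors couple to Gi and Go to restrain insulin secretion.

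Gnas is an imprinted locus with several promoters, and the deposited table gives 1 value for all of its transcripts. The gene lies on chromosome 2 at 174126022 to 174188537, plus strand (GRCm39, GENCODE M39), with the transcript of exon 1 of Gs alpha starting at 174171799 and an alternative first exon starting at 174169561. Gnai3 lies on chromosome 3 at 108014590 to 108053469, minus strand. RefSeq promoters (built on GRCm38.p6, 250 bases before and 50 after each start) were looked up for all members but Gnal. They were found for 6 genes, with 9 promoters, and each promoter matched GRCm39 exactly once. The 250 bases upstream of Gs alpha exon 1 and of Gnai3 are shown because these were the members higher in both genotypes after FSK in beta cells. Capitals mark the short CRE motif, TGACG or its reverse complement CGTCA, part of the element bound by the cAMP-responsive factor CREB.
Gnas exon 1, chr2:174171549-174171798, plus strand: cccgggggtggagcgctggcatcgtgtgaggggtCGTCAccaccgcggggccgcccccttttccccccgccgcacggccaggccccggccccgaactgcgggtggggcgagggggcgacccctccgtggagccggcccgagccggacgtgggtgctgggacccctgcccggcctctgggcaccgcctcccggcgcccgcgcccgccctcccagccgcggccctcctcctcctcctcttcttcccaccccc
Gnai3, chr3:108053469-108053718, minus strand: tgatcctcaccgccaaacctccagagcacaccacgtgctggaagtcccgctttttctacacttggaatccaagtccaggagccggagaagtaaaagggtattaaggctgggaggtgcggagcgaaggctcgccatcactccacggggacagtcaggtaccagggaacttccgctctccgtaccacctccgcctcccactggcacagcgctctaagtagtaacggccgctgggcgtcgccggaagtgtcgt
The short motif was searched on both strands of the windows. It was found in 3 of the 4 Gnas promoters, as its reverse complement, at position −216 from exon 1 of Gs alpha and as a single copy at −57 from 174169561 that is also −38 from the start at 174169542. In Gnai3 it lay 39 bases after the start and so outside the stretch shown, and it was not in the windows of Gnai1, Gnao1, Gna11, Gnaq or the first Gnas promoter. The full palindrome TGACGTCA, which holds the short motif, was in none of the 9 windows. Of 32851 promoter windows of this length, 20.8% held the short motif and 1.79% the full site. These matches are a description of the letters and not of binding.

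The remaining members differ widely in length, which bears on nuclear RNA because reads fall in introns as well as exons. Gnaq spans 256 kb (chromosome 19, 16110027 to 16365882), Gnao1 159 kb (chromosome 8, 94536594 to 94696016), Gnal 139 kb (chromosome 18), Gnai1 96.5 kb (chromosome 5, 18469193 to 18565655) and Gnas 62.5 kb. The short ones are Gnaz with 49.8 kb (chromosome 10, 74802917 to 74852744), Gnai3 with 38.9 kb, Gnai2 with 21.3 kb (chromosome 9, 107491324 to 107512626) and Gna11 with 16.5 kb (chromosome 10, 81364558 to 81381060). Genes on the opposite strand that are also in the table overlap Gnas (Gnasas1), Gnaz (Rsph14), Gnao1 (4930488L21Rik) and Gnal (Mppe1), and whether the authors counted by strand is not stated in the sources used here.

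Levels are given as counts per 10000 counts of the column (CP10K), with exact 95% Poisson intervals in parentheses that cover counting error only. Beta cell columns held 1915006 to 3094377 counts, alpha columns 269394 to 810127 and delta columns 362410 to 631433, while columns of the other types went down to 1522 counts (WT CON ductal cells). Calls between conditions were made in beta, alpha and delta cells only, and for Gnas the values of the other types are given beside them. A column total combines the number of nuclei with the RNA per nucleus, which cannot be told apart here. In the columns labelled beta, alpha and delta cells the fixed marker lists were highest in the cells they name: 8 beta cell markers summed to 47.7 to 69.2 CP10K in beta columns and 5.54 to 34.2 in alpha and delta columns, 6 alpha markers to 47.1 to 139 in alpha and 1.78 to 9.05 in the other 2, and 4 delta markers to 4.36 to 9.73 in delta and 0.0194 to 0.407 in the other 2. This was not so for neurons or skeletal muscle. The 4 neuron markers summed to 2.47 to 11.1 in columns labelled neurons but to 8.83 to 26.3 in delta columns, and the 8 beta markers reached 7.89 to 35.9 in the neuron columns. The 2 skeletal muscle markers in the table had a median of 0.0575 in columns labelled muscle and 0.581 in alpha columns, while 2 smooth muscle markers had a median of 2.49 in muscle columns and were at most 1.11 elsewhere. These names are therefore used below only as column labels. The WT CON column stands apart from the other columns without FSK. By the rule given below, the remaining beta columns without FSK differed among themselves at 148 to 384 of 10093 genes, and each of them differed from WT CON at 2990 to 3470.

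Across the cell types, Gnas was highest in delta cells, Gnao1 and Gnai1 in alpha cells, Gnaz in beta cells and Gnaq in macrophages, by the mean of the 6 conditions. Averaged over the 6 conditions, Gnas was at 57.7 CP10K in delta cells (lowest 18.3, median 25.2, highest 142), 20.4 in alpha cells (17.5 to 25.3), 9.93 in pancreatic polypeptide (PP) cells (6.47 to 12.0), 7.27 in macrophages (1.77 to 16.4) and 6.62 in beta cells (lowest 2.09, median 3.44, highest 15.8). The ranges of neighbouring types over the 6 conditions overlapped, except that all alpha columns lay above all PP columns. Columns labelled ductal, muscle, endothelial and neuron had means of 3.81 to 4.60.

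Gnao1 encodes the Go alpha subunit. Its mean was 19.4 CP10K in alpha cells (17.0 to 22.5), 13.8 in delta (10.7 to 16.3), 13.6 in beta (13.0 to 14.7) and 12.0 in PP cells (10.9 to 13.3). Every alpha column lay above every delta, beta and PP column, and every PP column lay above every column labelled neuron (mean 7.18, 2.96 to 10.2). The 4 remaining types had means of 2.62 to 3.99. The ductal mean rests on 10 counts in all.

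Gnai1, a Gi subunit, separated the endocrine types. It was at a mean of 1.61 CP10K in alpha cells (0.882 to 3.12) and 1.26 in PP cells (0.391 to 2.53), against 0.127 in delta (0.0463 to 0.194) and 0.112 in beta (0.0537 to 0.206), so that the lowest alpha column lay above the highest beta and delta columns. Gnai2 and Gnai3, the other Gi subunits, had means of 1.18 and 1.09 in beta cells, 0.786 and 0.517 in alpha cells and 0.845 and 0.458 in delta cells. Their ranges overlapped between these 3 types. Endothelial cells had a mean of 1.30 for Gnai2 (0.900 to 1.57). Gnaz, whose product is a Gi class subunit insensitive to pertussis toxin, was at 1.42 in beta cells (1.28 to 1.68), 1.25 in PP, 1.20 in delta and 1.14 in alpha cells, with overlapping ranges, and at 0.183 to 0.550 in the 5 non-endocrine types.

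Gnaq was highest in macrophages, with a mean of 12.2 CP10K (4.70 to 20.1, from 246 counts). It was at 6.17 in PP cells, 5.65 in endothelial cells, 5.51 in delta cells (2.24 to 10.3), 4.02 in columns labelled neurons, 3.95 in alpha cells (2.18 to 6.03) and 3.37 in beta cells (1.91 to 4.84), and the ranges of all neighbours in this order overlapped. Gna11, the close relative of Gnaq, was at 0.241 in beta, 0.243 in alpha and 0.242 in delta cells. Gnal was at 0.0449 in beta, 0.0386 in alpha and 0.0683 in delta cells and highest in columns labelled neurons at 0.453 (8 counts in all). No Gnal count was found in ductal cells, where a count of 0 among the 51442 counts of the 6 columns allows up to 0.583 CP10K (3 counts).

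**Figure D1:**
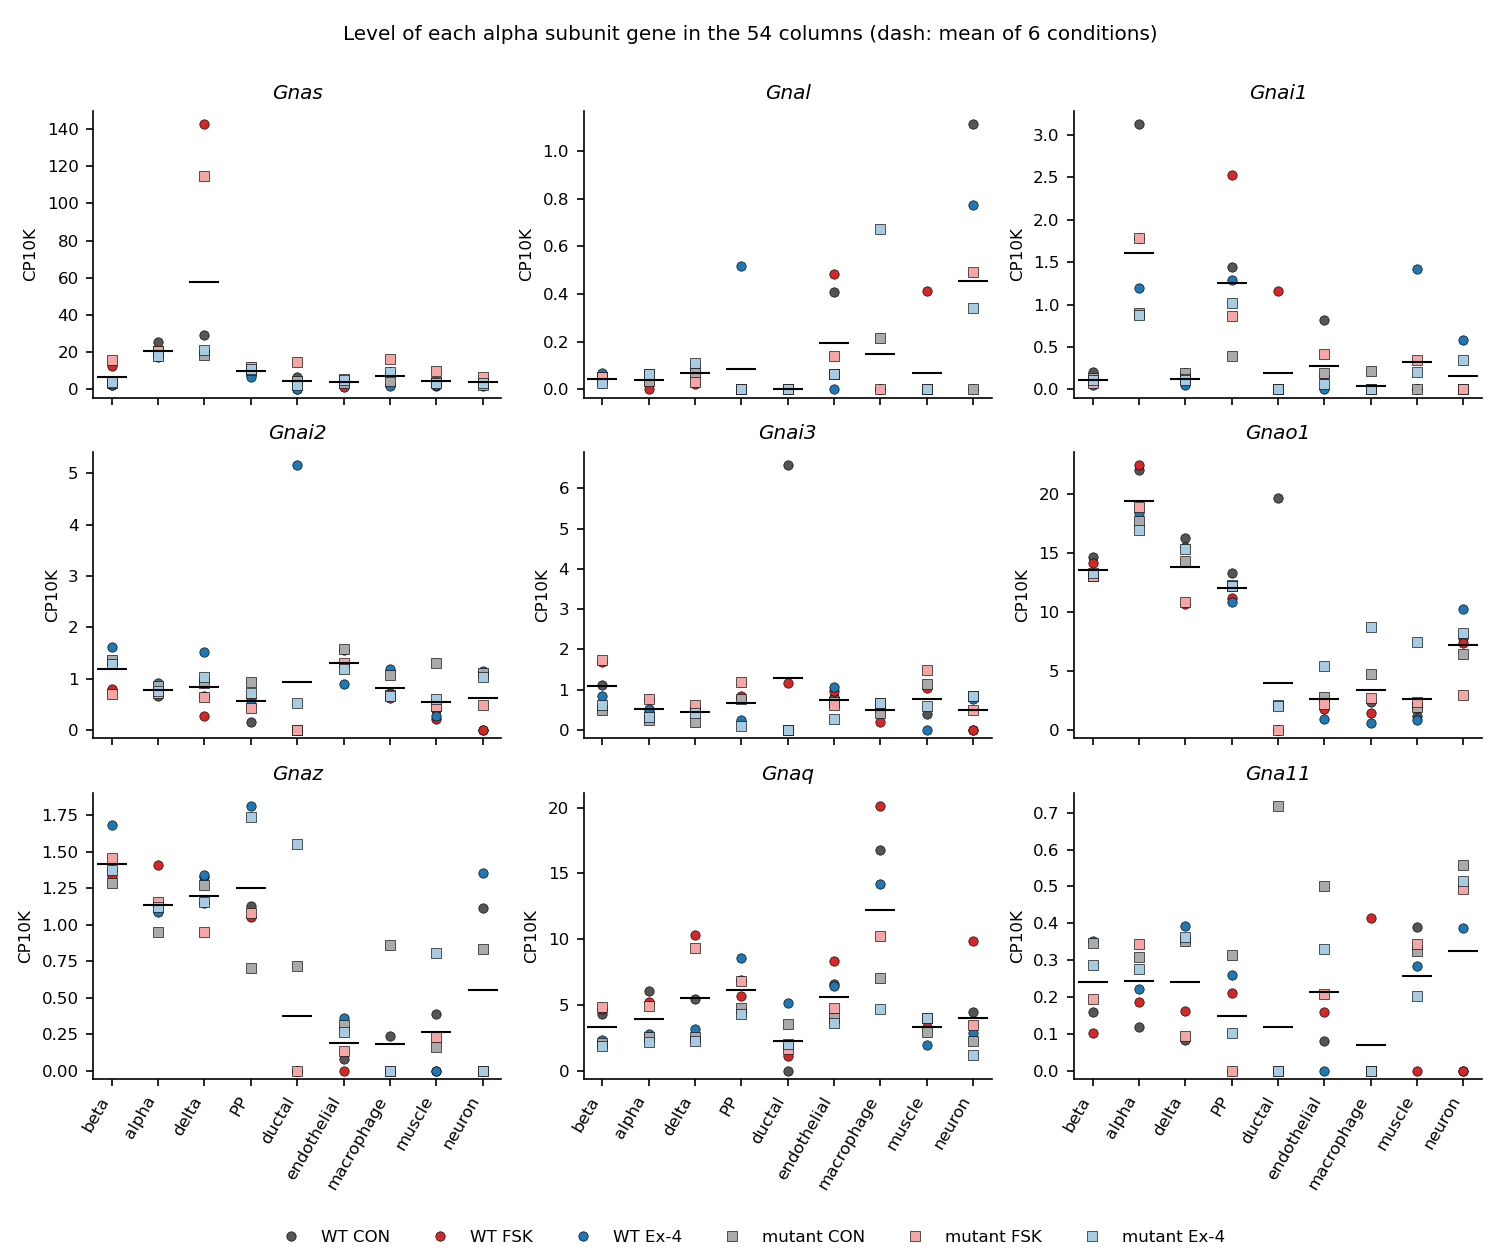
CP10K (vertical axes, linear) of each of the 9 genes in the 9 cell types (horizontal axis), with 1 point for each of the 6 conditions and a dash at their mean. Gnas in delta cells reached 142 and 115 CP10K in the FSK columns, Gnai1 was highest in alpha and PP cells, and Gnaq was highest in macrophages. Wide scatter in ductal and neuron columns goes with their low totals.

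To compare members with each other, mean levels over the 6 conditions were divided by gene length. In beta cells the level per 100 kb of gene span was 10.6 for Gnas, 8.54 for Gnao1, 5.55 for Gnai2, 2.85 for Gnaz, 2.80 for Gnai3, 1.46 for Gna11, 1.32 for Gnaq, 0.116 for Gnai1 and 0.0324 for Gnal. Per kb of merged exons the order was Gnao1 (1.19), Gnas (0.552) and then Gnaq (0.455), and 2 of the 9 members kept their rank. By these means Gnas and Gnao1 came first and second in beta and alpha cells on either scale, in either order. In delta cells Gnas was first on both, at 92.2 per 100 kb of span and 4.80 per kb of exon. The beta mean of Gnas holds FSK columns of 12.7 and 15.8 CP10K, against 2.09 to 3.73 in the columns without FSK. In those columns without FSK, both Gnao1 and Gnai2 were above Gnas per length of span, so its beta rank holds for the mean only.

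The treatments were compared by the ratio of CP10K with its exact 95% interval. A gene was kept where its average level in that cell type reached the 40th percentile of the genes above 0, which left 10093 genes in beta, 9487 in alpha and 9256 in delta cells and 8 of the 9 members in each, all but Gnal. A gene was called when the ratio was at least 1.5-fold and the Poisson intervals of both columns were apart. The share of all kept genes called in the same direction is given beside each count of members. Since the members were selected with these comparisons known, nothing is read from a count against that share. The median log2 ratio of all kept genes in beta cells was −0.31 for WT FSK, −0.14 for mutant FSK, 0.16 for WT Ex-4, −0.04 for mutant Ex-4 and 0.00 for mutant CON against WT CON, and the ratios below are not centred on it. Of all calls in beta cells, 23.8% were higher with WT FSK and 41.7% after centring, and 65.4% were higher with WT Ex-4 and 53.9% after centring. For mutant CON against WT CON 49.1% of calls were higher, and 62.1% when column totals were recomputed without 16 mitochondrial and ribosomal RNA related genes. On the log2(CP10K + 1) scale, which makes fewer calls among low genes, 67.7% of calls were higher with WT FSK, 65.4% with mutant FSK (44.9% otherwise), 30.2% with WT Ex-4 and 27.6% for mutant CON against WT CON.

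Under FSK, Gnas was the member with the largest difference from CON in beta and delta cells, in both genotypes. In WT beta cells 2 of the 8 kept members were called higher (Gnas and Gnai3; 6.06% of all kept genes were) and 2 lower (Gnai1 and Gnai2; 19.5% of all). In mutant beta cells 3 were higher (Gnas, Gnai3 and Gnaq; 17.9%) and 2 lower (Gnai2 and Gna11; 21.9%). In WT delta cells 2 were higher (Gnas and Gnaq; 4.04%) and 1 lower (Gnao1; 4.95%), and in mutant delta cells 3 were higher (Gnas, Gnai3 and Gnaq; 12%) and 1 lower (Gna11; 7.84%). In WT alpha cells none was higher (2.16%) and 1 lower (Gnai1; 2.41%), and in mutant alpha cells 3 were higher (Gnai1, Gnai3 and Gnaq; 9.53%) and none lower (3.89%). The median log2 ratio of the 8 members in beta cells was −0.04 in WT and 0.09 in the mutant.

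Gnas in beta cells stood at 2.09 CP10K (1.93 to 2.26) in the WT CON column, 12.7 (12.3 to 13.1) in WT FSK, 2.27 (2.11 to 2.45) in WT Ex-4, 3.15 (2.91 to 3.41) in mutant CON, 15.8 (15.3 to 16.3) in mutant FSK and 3.73 (3.46 to 4.02) in mutant Ex-4. Both FSK columns lay above all columns without FSK. The ratio to CON was 6.05 (5.56 to 6.59) in WT, from 3923 and 631 counts, and 5.02 (4.60 to 5.48) in the mutant. Gnas thereby ranked 48th from the top of the 10093 kept genes in WT and 122nd in the mutant. Against WT Ex-4 in place of WT CON the ratio of WT FSK was 5.57 (5.14 to 6.06).

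In delta cells Gnas was at 29.4 CP10K (27.6 to 31.2) in the WT CON column, 142 (139 to 146) in WT FSK, 20.1 (18.7 to 21.4) in WT Ex-4, 18.3 (17.2 to 19.5) in mutant CON, 115 (112 to 117) in mutant FSK and 21.0 (19.8 to 22.3) in mutant Ex-4. FSK columns were 4.85-fold (4.54 to 5.18) and 6.25-fold (5.86 to 6.68) above CON in WT and mutant. In alpha cells the 6 columns ran from 17.5 to 25.3, and the FSK to CON ratio was 0.788 (0.709 to 0.875) in WT and 1.01 (0.939 to 1.08) in the mutant. PP cells had 7.72 (5.69 to 10.2) in WT CON against 11.8 (8.92 to 15.3) in WT FSK, and 10.4 (8.72 to 12.3) against 12.0 (9.89 to 14.5) in the mutant, with overlapping intervals. Delta markers summed to 5.38 in CON and 9.73 in FSK in WT and to 4.36 and 7.68 in the mutant, beta markers to 13.8 and 5.54 in WT and to 10.1 and 7.35 in the mutant, and their part in the delta Gnas values was not tested.

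Among the shallow columns, Gnas in macrophages was at 2.16 CP10K (0.986 to 4.09, from 9 counts) in WT CON and 9.33 (6.81 to 12.5, 45 counts) in WT FSK, and at 4.51 (2.79 to 6.89, 21 counts) in mutant CON and 16.4 (10.5 to 24.5, 24 counts) in mutant FSK. The intervals were apart in both genotypes. In columns labelled muscle it was at 1.56 (0.424 to 3.99) and 3.93 (2.37 to 6.14) in WT, which overlap, and at 3.74 (2.37 to 5.61) and 10.0 (8.01 to 12.3) in the mutant, which do not. Endothelial cells had less Gnas with FSK in WT, 1.45 (0.662 to 2.75) against 3.92 (2.89 to 5.20), and 5.81 (4.64 to 7.20) against 3.64 (2.76 to 4.71) in the mutant, with overlapping intervals. In ductal columns and those labelled neurons, with 0 to 13 counts each, the intervals overlapped in both genotypes. Delta markers in the macrophage columns came to 0 and 4 counts in WT CON and FSK and to 6 and 1 in the mutant. In the muscle columns they came to 0 in both WT conditions and to 3 in mutant CON as in mutant FSK. At the marker percentage of the delta level, delta Gnas comes to 12.1 CP10K in WT FSK macrophages, above the 9.33 measured. In mutant macrophages it comes to 5.42 beside 4.51 in CON and 10.2 beside 16.4 in FSK. In mutant muscle columns it comes to 2.05 beside 3.74 in CON and 5.15 beside 10.0 in FSK. These figures rest on the few marker counts given, and the part of delta nuclei in these Gnas values was not tested.

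Because delta nuclei carry so much Gnas, delta markers were measured in the beta columns. Their sum was 0.0531 CP10K in WT CON and 0.0194 in WT FSK, and 0.145 in mutant CON and 0.0521 in mutant FSK, so that it was lower with FSK. In WT FSK it came to 0.199% of the level in delta cells, and that percentage of delta Gnas is 0.284 CP10K beside the 12.7 measured. In mutant FSK the corresponding figures are 0.678%, 0.778 and 15.8, and in mutant Ex-4, where delta markers were highest in beta columns, 7.27%, 1.53 and 3.73. With that part taken off in each column, a comparison added after seeing the data, the FSK to CON ratio was 6.87 in WT and 5.92 in the mutant. Alpha markers in the beta columns summed to 7.34 in WT CON, 9.05 in WT FSK, 4.64 in mutant CON and 7.60 in mutant FSK. In the alpha columns of these conditions they summed to 118, 139, 48.6 and 113, and Gnas in alpha columns was at 17.5 to 25.3. Alpha markers in these beta columns were thus nearer their own level than delta markers were. Their part in the Gnas values was neither taken off nor tested, so the ratios of 6.87 and 5.92 still hold it.

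The antisense gene Gnasas1, which overlaps Gnas and was examined after its values were seen, was also higher in the FSK columns of beta cells. It was at 0.0631 CP10K (0.0380 to 0.0985) in the WT CON column, 0.339 (0.278 to 0.411) in WT FSK, 0.0883 (0.0514 to 0.141) in mutant CON and 0.517 (0.428 to 0.618) in mutant FSK. In delta cells it was at 1.10 and 3.72 in WT CON and FSK and at 0.671 and 3.45 in the mutant. Without a statement on strand, reads from Gnas and from its antisense partner cannot be told apart.

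**Figure D2:**
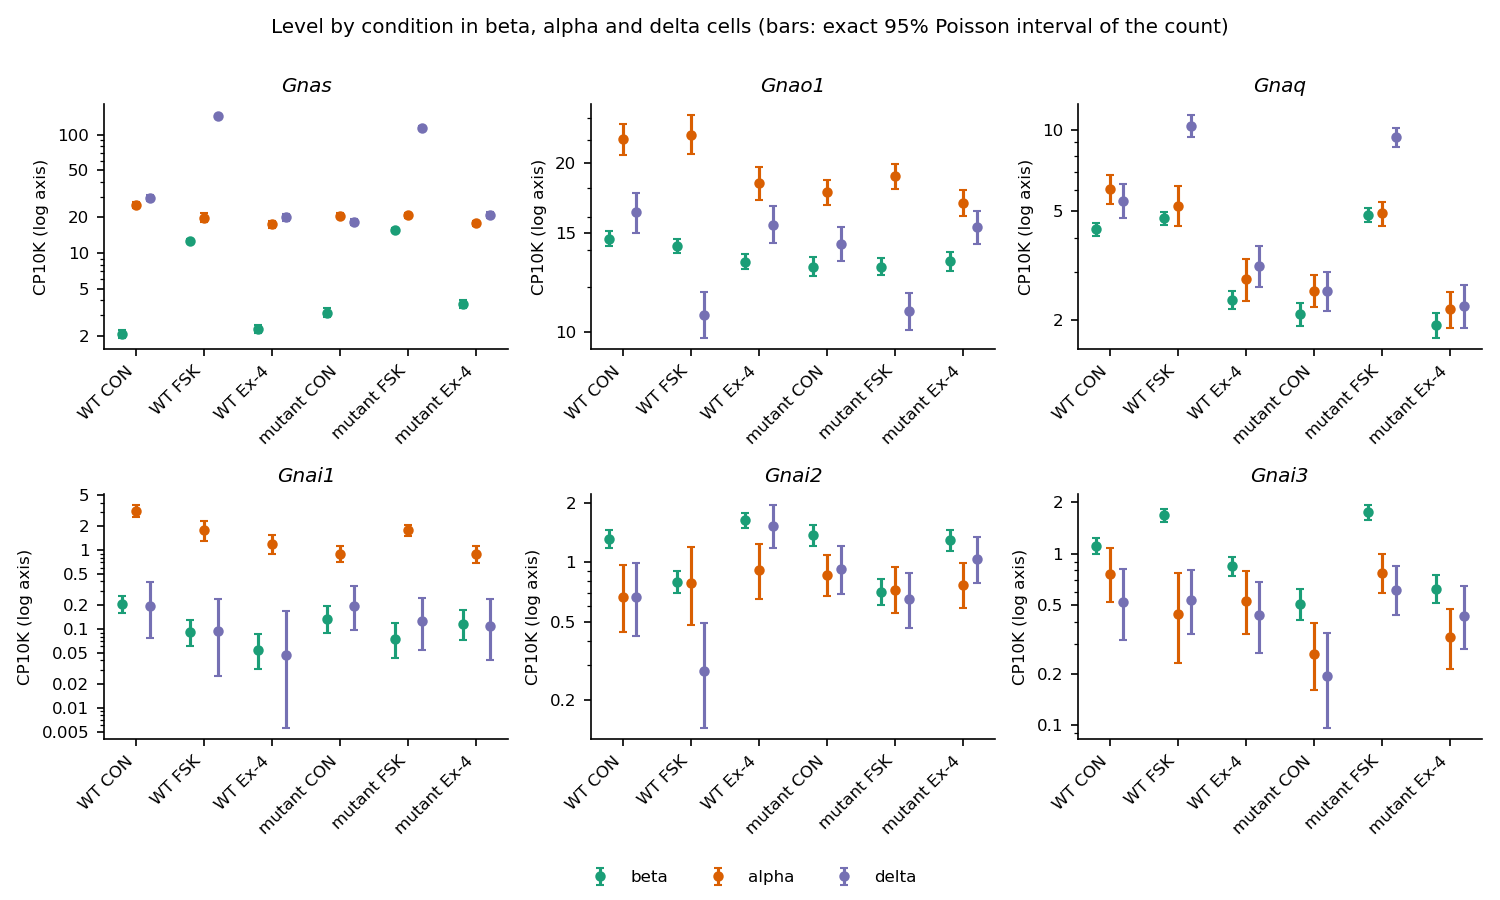
CP10K (vertical axes, log scale) of 6 members in each condition (horizontal axis) for beta, alpha and delta cells, with exact 95% Poisson intervals. Gnas is highest in the FSK columns of beta and delta cells and lies between 17.5 and 25.3 in all alpha columns, and Gnaq in beta cells is at 4.30 to 4.84 in WT CON and both FSK columns and at 1.91 to 2.36 in the other columns.

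Gnas also took a larger share of the counts of the 9 members, a measure that does not depend on the column total. In beta cells of WT islets Gnas gave 8.29% of these counts without drug (exact binomial 95% interval 7.68 to 8.93), 35.6% with FSK (34.7 to 36.5) and 10.1% with Ex-4 (9.36 to 10.8). In the mutant the shares were 14.3% (13.3 to 15.4), 41.7% (40.6 to 42.7) and 16.4% (15.4 to 17.6). The delta share went from 54.4% (52.1 to 56.6) to 86.0% (85.1 to 86.8) with FSK in WT and from 48.0% (45.9 to 50.1) to 83.5% (82.7 to 84.3) in the mutant. In alpha cells it was 38.2% to 46.7% in all 6 columns. With Gnao1 left out of the sum, the WT beta shares were 19.7% in CON and 59.2% in FSK.

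**Figure D3:**
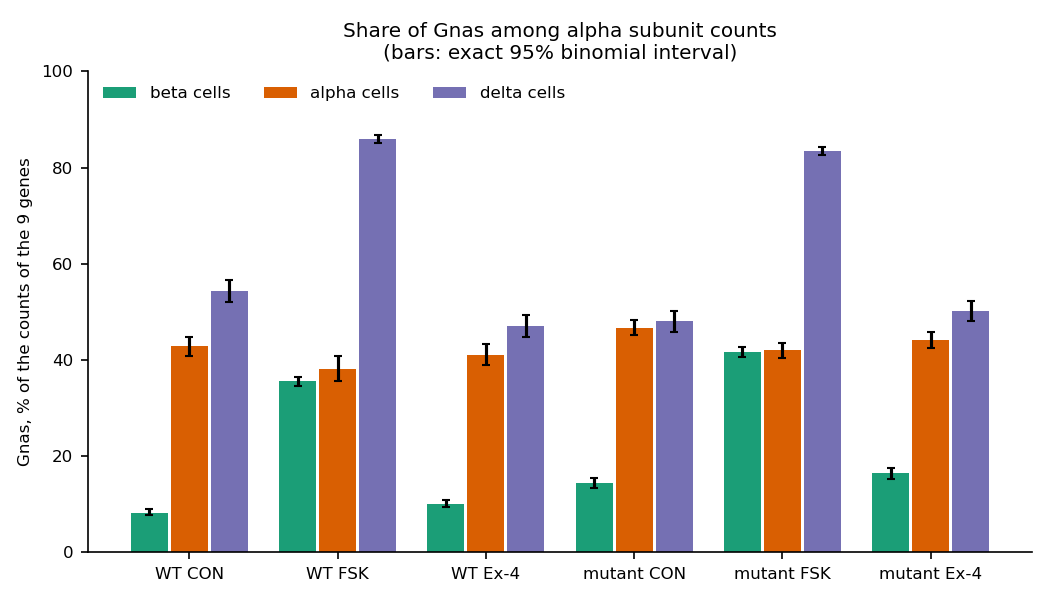
Percentage of the summed counts of the 9 alpha subunit genes that came from Gnas (vertical axis, from 0) in each condition for beta, alpha and delta cells, with exact 95% binomial intervals. The beta share is 8.29% to 16.4% without FSK and 35.6% and 41.7% with it, the delta share is 47.1% to 54.4% without and 86.0% and 83.5% with it, and the alpha share lies between 38.2% and 46.7%.

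Of the Gi subunits, Gnai3 was higher and Gnai2 lower with FSK in beta cells of both genotypes. Gnai3 was at 1.12 CP10K (1.00 to 1.24) in the WT CON column, 1.68 (1.54 to 1.83) in WT FSK, 0.849 (0.747 to 0.960) in WT Ex-4, 0.509 (0.413 to 0.620) in mutant CON, 1.75 (1.58 to 1.92) in mutant FSK and 0.627 (0.520 to 0.749) in mutant Ex-4. Both FSK columns were the highest and close to each other, and WT CON was the highest of the rest. The ratio was 1.51 (1.31 to 1.73) in WT, at the edge of the threshold and not called once columns were rescaled, and 3.43 (2.74 to 4.32) in the mutant. Gnai3 was also higher with FSK in mutant alpha cells (0.776 against 0.259, ratio 2.99, 1.80 to 5.18) and mutant delta cells (0.618 against 0.194, ratio 3.18, 1.60 to 6.88), with ratios of 0.584 (0.274 to 1.16) and 1.03 (0.535 to 1.99) in WT.

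Gnai2 in beta cells was at 1.31 CP10K (1.19 to 1.45) in the WT CON column, 0.795 (0.699 to 0.901) in WT FSK, 1.63 (1.49 to 1.78) in WT Ex-4, 1.37 (1.21 to 1.54) in mutant CON, 0.708 (0.603 to 0.825) in mutant FSK and 1.29 (1.13 to 1.46) in mutant Ex-4. The 2 FSK columns lay below all others. The ratios were 0.606 (0.515 to 0.713) in WT and 0.518 (0.423 to 0.632) in the mutant. Removal of the trend with gene length, which was downward for short genes, left log2 ratios of −0.23 and −0.55 and ended both calls, and centring on the median of all genes ended that of WT. In delta cells Gnai2 was at 0.281 with FSK against 0.662 in WT and at 0.649 against 0.918 in the mutant, not called in either, and in alpha cells the 6 columns ran from 0.668 to 0.908.

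Gnai1 was low in beta cells, at 0.206 CP10K (0.158 to 0.264) in WT CON against 0.0905 (0.0601 to 0.131) in WT FSK, and at 0.135 (0.0882 to 0.198) in mutant CON against 0.0738 (0.0430 to 0.118) in mutant FSK, the last from 17 counts. The ratio was 0.440 (0.271 to 0.697) in WT, called lower, and 0.547 (0.278 to 1.05) in the mutant, not called. In alpha cells WT CON had 3.12 (2.61 to 3.71), WT FSK 1.78 (1.31 to 2.36), WT Ex-4 1.20 (0.899 to 1.56), mutant CON 0.901 (0.706 to 1.13), mutant FSK 1.78 (1.5 to 2.10) and mutant Ex-4 0.882 (0.688 to 1.11). Both FSK columns were at the same level, while the WT CON column was the highest of the 6 and mutant CON among the lowest. The ratio of FSK to CON was accordingly 0.570 (0.401 to 0.799) in WT and 1.98 (1.48 to 2.66) in the mutant. The 6 alpha cell markers in these columns summed, for CON, FSK and Ex-4, to 118, 139 and 49.9 CP10K in WT and to 48.6, 113 and 47.1 in the mutant, and the 8 beta cell markers were highest in WT CON at 34.2 against 12.3 to 20.0 in the others. Their part in the Gnai1 values was not tested.

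Gnao1 and Gnaz differed little between columns in beta cells. Gnao1 ran from 13.0 to 14.7 CP10K, with FSK to CON ratios of 0.970 (0.930 to 1.01) in WT and 1.00 (0.949 to 1.06) in the mutant. Gnaz ran from 1.28 to 1.68, with ratios of 0.971 (0.845 to 1.12) and 1.14 (0.962 to 1.35). In delta cells Gnao1 was lowest in both FSK columns, at 10.7 (9.75 to 11.7) against 16.3 (15 to 17.7) in WT and at 10.9 (10.1 to 11.7) against 14.3 (13.4 to 15.3) in the mutant. The ratios were 0.657 (0.58 to 0.743), called, and 0.760 (0.685 to 0.842), not past 1.5-fold. The WT call was lost once the length trend was removed.

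Among the Gq class, Gnaq in beta cells was at 4.30 CP10K (4.07 to 4.54) in the WT CON column, 4.71 (4.47 to 4.96) in WT FSK, 2.36 (2.19 to 2.54) in WT Ex-4, 2.09 (1.89 to 2.30) in mutant CON, 4.84 (4.56 to 5.13) in mutant FSK and 1.91 (1.72 to 2.11) in mutant Ex-4. WT CON sat with the FSK columns, and the other 3 columns were lower. The FSK ratio was 1.10 (1.02 to 1.18) in WT and 2.32 (2.07 to 2.60) in the mutant. In delta cells both FSK columns were highest, at 10.3 (9.35 to 11.3) against 5.46 (4.73 to 6.28) in WT and at 9.36 (8.62 to 10.1) against 2.54 (2.14 to 2.99) in the mutant, ratios of 1.88 (1.59 to 2.24) and 3.68 (3.06 to 4.45). Alpha cells had 5.23 against 6.03 in WT and 4.91 against 2.56 in the mutant (ratios 0.867, 0.701 to 1.07, and 1.92, 1.62 to 2.29). Gnaq is the longest member, and with the length trend removed its log2 ratio in the mutant was 0.58 in beta cells and 0.51 in alpha cells, under the threshold, and 1.43 in delta cells.

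Gna11 had low counts, with 32 to 105 in each beta column. It was at 0.159 CP10K (0.117 to 0.211) in the WT CON column and 0.103 (0.0707 to 0.146) in WT FSK, a ratio of 0.649 (0.402 to 1.04). In the mutant it was at 0.348 (0.27 to 0.442) and 0.195 (0.142 to 0.261), a ratio of 0.561 (0.376 to 0.831) that was called. Removing the length trend left a log2 ratio of −0.28 and ended that call. In mutant delta cells the ratio was 0.269 (0.0884 to 0.695), from 6 and 20 counts. Gnal, which did not pass the filter, had 5 to 20 counts in each beta column and an FSK ratio of 0.556 (0.202 to 1.42) in WT and 1.00 (0.397 to 2.59) in the mutant.

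Exendin-4 gave no call in the mutant for any member in any of the 3 cell types. In mutant beta cells 0.485% of kept genes were called higher and 0.981% lower, in alpha cells 0.169% and 0.622%, and in delta cells 0.335% and 0.475%. In WT beta cells 1 member was called higher (Gna11; 19.4% of all kept genes) and 2 lower (Gnai1 and Gnaq; 10.3%). In WT alpha cells none was higher (4.6%) and 2 lower (Gnai1 and Gnaq; 7.65%), and in WT delta cells 1 was higher (Gnai2; 4.61%) and 1 lower (Gnaq; 5.46%). The WT comparisons share their WT CON column with those of FSK and of genotype.

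Gnas itself was 1.09 times CON (0.973 to 1.21) with Ex-4 in WT beta cells and 1.18 times (1.06 to 1.32) in mutant beta cells. Delta markers in the beta columns were at 3.33% of their delta level in mutant CON and 7.27% in mutant Ex-4, and with the Gnas that goes with them taken off the mutant ratio was 0.868, on the other side of 1, while that of WT was 1.10. Alpha markers in the mutant CON and mutant Ex-4 beta columns, at 4.64 and 4.80 CP10K, were not taken off, and their part was not tested. In the columns as deposited, Gnas was 0.693 times CON (0.631 to 0.760) and 0.864 times (0.805 to 0.928) in alpha cells and 0.683 times (0.624 to 0.748) and 1.15 times (1.05 to 1.25) in delta cells, none of them past 1.5-fold. In beta cells Gnaq was 0.549 times CON (0.500 to 0.603) in WT and 0.913 times (0.790 to 1.05) in the mutant, and the WT log2 ratio was −0.35 with the length trend removed, under the threshold. Gnai1 was 0.261 times (0.140 to 0.457) in WT, from 16 and 62 counts, and 0.851 times (0.460 to 1.56) in the mutant. Gna11 was 2.21 times (1.56 to 3.18) in WT and 0.825 times (0.567 to 1.20) in the mutant.

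In WT alpha cells Gnai1 was 0.383 times CON (0.274 to 0.530) with Ex-4 and Gnaq 0.466 times (0.374 to 0.579). In WT delta cells Gnaq was 0.576 times CON (0.460 to 0.721), and Gnai2 was 2.31 times (1.43 to 3.85), at 1.53 CP10K (1.18 to 1.94) against 0.662 (0.424 to 0.985). Without the length trend the Gnaq log2 ratios were −0.51 and −0.31, under the threshold. In the mutant the corresponding ratios were 0.979 (0.695 to 1.38) for Gnai1 and 0.853 (0.693 to 1.05) for Gnaq in alpha cells, and 0.883 (0.688 to 1.13) for Gnaq and 1.12 (0.758 to 1.67) for Gnai2 in delta cells.

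**Figure D4:**
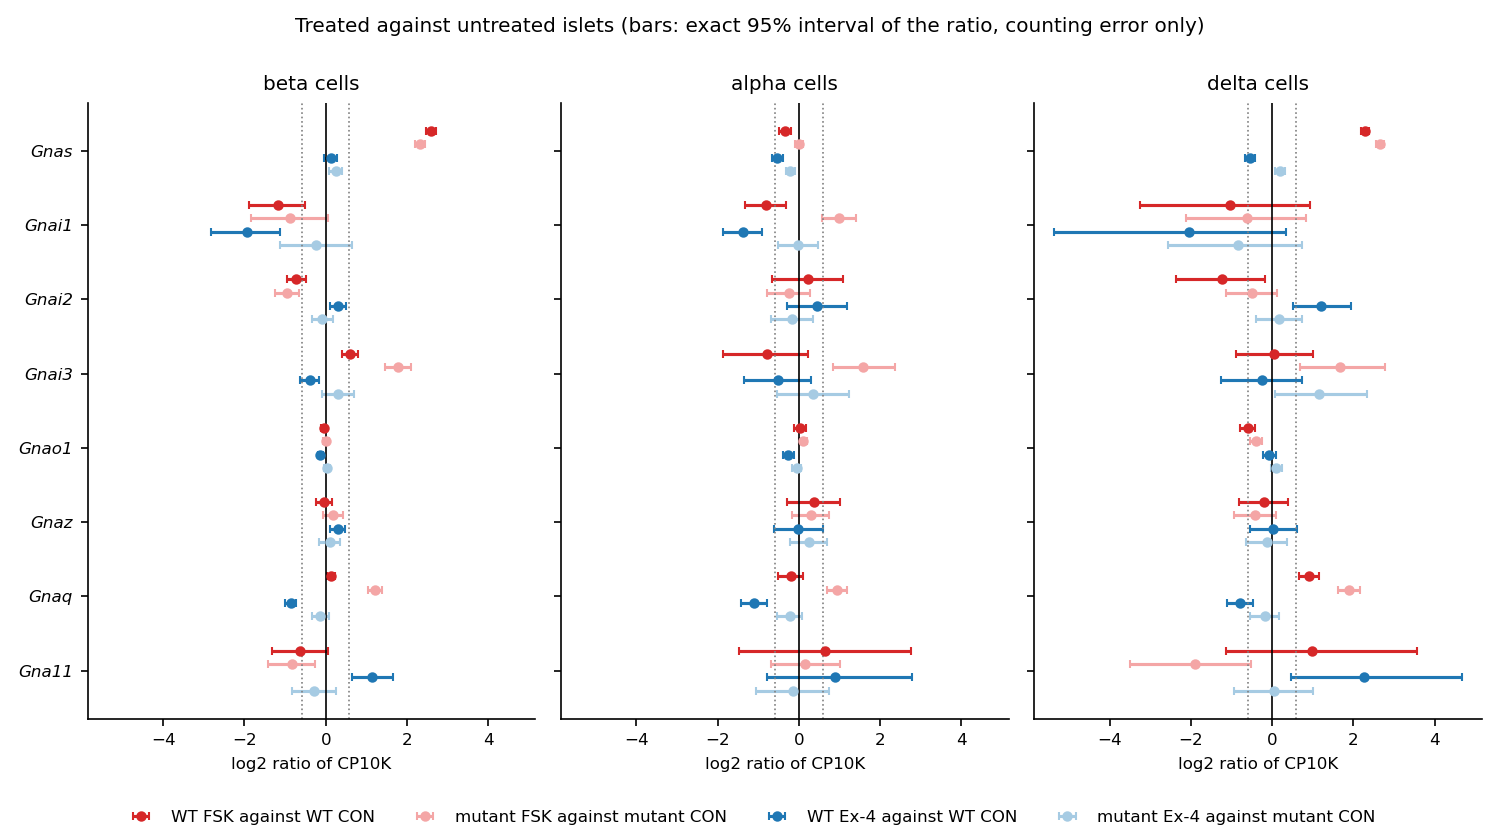
Log2 ratio of CP10K of FSK and Ex-4 against CON (horizontal axes) for the 8 kept members (vertical axis) in beta, alpha and delta cells, with exact 95% intervals for counting error and dotted lines at 1.5-fold. Gnas with FSK lies at 2.60 and 2.33 in beta and at 2.28 and 2.64 in delta cells but at −0.34 and 0.01 in alpha cells, and no mutant Ex-4 value was called.

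The untreated columns of the genotypes differed at 4 of the 8 kept members in beta cells. Mutant CON was higher than WT CON for 2 members (Gnas and Gna11; 16.9% of all kept genes) and lower for 2 (Gnai3 and Gnaq; 17.5%). In alpha cells none was higher (5.82%) and 3 were lower (Gnai1, Gnai3 and Gnaq; 11.2%), and in delta cells none was higher (6.28%) and 2 were lower (Gnas and Gnaq; 8.77%). Gnas was 1.51 times WT (1.34 to 1.69) in beta cells, at the edge of the threshold, 0.817 times (0.756 to 0.883) in alpha cells and 0.625 times (0.573 to 0.681) in delta cells. The ratio for Gnai1 in alpha cells was 0.288 (0.214 to 0.387), and Gnaq was 0.486 times WT (0.433 to 0.544) in beta, 0.423 times (0.351 to 0.511) in alpha and 0.465 times (0.373 to 0.58) in delta cells. With the length trend removed the Gnaq log2 ratios were −0.38, −0.50 and −0.43, all under the threshold. Delta cell markers in the beta columns summed to 0.145 CP10K in mutant CON and 0.0531 in WT CON, and with the Gnas that goes with them taken off the ratio was 1.41, under the threshold. Alpha markers there summed to 4.64 in mutant CON and 7.34 in WT CON, and their part was not tested.

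Genotypes can also be compared without the WT CON column. Between the Ex-4 columns, Gnas was 1.64 times WT (1.48 to 1.83) in mutant beta cells, 1.02 times (0.934 to 1.11) in alpha cells and 1.05 times (0.958 to 1.15) in delta cells. Alpha markers in these beta columns summed to 4.80 CP10K in the mutant and 4.64 in WT, and their part was neither taken off nor tested. Delta markers in the same columns were at 7.27% of their delta level in the mutant and 1.44% in WT. With that delta part of Gnas taken off the ratio in beta cells was 1.11. In beta cells the mutant to WT ratio with FSK was 1.25 (1.19 to 1.31) for Gnas (1.21 with that part taken off), 1.04 (0.908 to 1.18) for Gnai3, 1.03 (0.95 to 1.11) for Gnaq, 0.890 (0.726 to 1.09) for Gnai2, 0.919 (0.877 to 0.963) for Gnao1 and 1.09 (0.944 to 1.27) for Gnaz. For Gnai1 in alpha cells it was 1.00 (0.716 to 1.42). Gna11 in beta cells was 1.89 times WT (1.17 to 3.07), with overlapping Poisson intervals of the columns.

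The partners of the alpha subunits were described from fixed lists, naming at most 3 genes a list among those called alike in both genotypes with FSK in beta cells. For each list the counts stand beside the share of all kept beta genes called in that direction, and nothing particular to a list is read from them. Of 7 other alpha subunits, 4 were in the table and kept. Gna14, a Gq class subunit, was at 0.0299 CP10K in WT CON and 0.449 in WT FSK (ratio 15, 7.70 to 33.6) and at 0.0364 and 0.530 in the mutant (ratio 14.6, 6.86 to 37.0), and both Ex-4 conditions list it at 0 in every cell type, so no value is read from those. In all, 1 of the 4 was called higher and none lower in WT (6.06% and 19.5% of all kept genes), and 3 were higher and 1 lower in the mutant (17.9% and 21.9%).

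Of 17 beta and gamma subunit genes, 11 were in the table and 6 were kept in beta cells. With FSK 1 was higher and 1 lower in WT (6.06% and 19.5% of all kept genes), and 5 were higher and 1 lower in the mutant (17.9% and 21.9%). The median log2 ratio of the list was 0.34 in WT and 1.00 in the mutant, against −0.31 and −0.14 over all kept genes. Gng12, a gamma subunit, was at 16.9 CP10K in WT CON and 30.7 in WT FSK (ratio 1.81, 1.75 to 1.88), and at 7.13 and 26.2 in the mutant (ratio 3.67, 3.46 to 3.90). Gnb2, a beta subunit, was at 0.202 and 0.0614 in WT (ratio 0.303, 0.171 to 0.515) and 0.587 and 0.130 in the mutant (ratio 0.222, 0.143 to 0.334).

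RGS proteins speed GTP hydrolysis and so end the signal of Gi and Gq subunits. Of 20 genes, 16 were in the table and 9 kept in beta cells. With FSK 3 were called higher and 2 lower in WT (6.06% and 19.5% of all kept genes), and 4 higher and 2 lower in the mutant (17.9% and 21.9%). Rgs17 was at 1.32 CP10K in WT CON and 5.12 in WT FSK (ratio 3.88, 3.48 to 4.35) and at 0.956 and 5.73 in the mutant (ratio 5.99, 5.13 to 7.03). Rgs4 was at 0.139 and 0.540 in WT (ratio 3.87, 2.75 to 5.57) and 0.306 and 0.890 in the mutant (ratio 2.90, 2.16 to 3.95). Rgs16 went the other way, at 0.156 and 0.0226 in WT (ratio 0.145, 0.0553 to 0.323) and 0.286 and 0.0478 in the mutant (ratio 0.167, 0.0789 to 0.323).

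Among 9 chaperones and activators of alpha subunits, 7 were in the table and 6 kept in beta cells, of which 1 was higher and 1 lower in WT (6.06% and 19.5% of all kept genes) and 1 higher and 2 lower in the mutant (17.9% and 21.9%). Ric8a, a chaperone of Gi and Gq class subunits, was at 0.139 CP10K in WT CON and 0.0582 in WT FSK (ratio 0.417, 0.226 to 0.741) and at 0.260 and 0.135 in the mutant (ratio 0.518, 0.320 to 0.827). Of the 4 phospholipase C beta genes, the effectors of Gq, 3 were in the table and kept. With FSK none was higher and 1 lower in WT (6.06% and 19.5% of all kept genes). In the mutant 1 was higher and 1 lower (17.9% and 21.9%). The median log2 ratio of the list was 0.03 in WT and 0.17 in the mutant. Plcb3 was lower in both genotypes (0.173 to 0.0711 in WT, ratio 0.412, 0.238 to 0.690, and 0.265 to 0.0781 in the mutant, ratio 0.295, 0.162 to 0.514). Ex-4 in the mutant gave no call in any of these lists in beta, alpha or delta cells.

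The genes whose log values were most like those of a member over the 18 beta, alpha and delta columns were found among 8560 genes kept in all 3 types. For Gnas these were Exoc6 (Pearson r 0.94), an exocyst subunit, Myo1e (0.92), a class I myosin, Cadm1 (0.90), a cell adhesion molecule, Samd4 (0.89) and Prox1os (0.89). For Gnai1 they were Galnt13 (0.99) and Astn2 (0.98), for Gnai2 Pde4c (0.88) and Gjd2 (0.88), for Gnai3 Slc30a7 (0.95) and Rap1a (0.95), for Gnao1 Airn (0.95) and A1cf (0.93), for Gnaz Dpp4 (0.81) and Gm47889 (0.80), for Gnaq Sgms2 (0.96) and Mkln1 (0.96), and for Gna11 Irak1 (0.91) and Wbp1 (0.90). Among members, Gnas and Gnaq had r = 0.70, Gnai1 and Gnao1 r = 0.86, and Gnas and Gnai2 r = −0.82. The columns share cell types, conditions and libraries, so these values are descriptions.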

How the data were processed

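Single nucleus RNA-seq of islets was performed with combinatorial barcoding. Per the methods, the authors processed reads with split-pipe against mm39, filtered nuclei on counts, genes and mitochondrial reads, used Seurat for normalization and integration, and assigned cell types. They then downsampled the nuclei to an equal number per sample. The deposited values are natural log, ln(1 + 10000 × count / column total), 1 per condition and cell type, for 17362 genes in 54 columns. The state of the counts that were pooled (raw or corrected), the annotation release and the use of strand are not given in the sources used here. Counts were recovered as whole numbers (100% within 0.001), with column totals of 1522 to 3094377.

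Ratios of CP10K were given exact intervals (Clopper-Pearson on the split of the counts), levels exact Poisson intervals and shares exact Clopper-Pearson intervals, all at 95% and for counting error only. A count of 0 was given a limit of 3 counts. The 8 sublibraries each hold all conditions and are not replicates, so no test was run. The members, the lists and the comparisons were chosen with earlier results of these data known. Named genes were the 9 members, up to 3 genes a list called alike in both genotypes with FSK in beta cells, and the 5 genes most like Gnas or 2 most like each other member. Gnasas1 was added after its values were seen. The call rule was checked on simulated counts with counting error only. That check cannot tell how far islet preparations differ without a treatment. Coordinates came from GRCm39 (GENCODE M39) and promoter sequences from RefSeq.

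Alternatives were a difference of log2(CP10K + 1), pseudocounts of 0.01 or 1 times the median level, calls without the rule on intervals, no filter or the 75th percentile, a 2-fold threshold, ratios centred on their median, totals recomputed after leaving out 16 genes (6 mitochondrial, the others tied to ribosomal RNA), and subtraction of a lowess fit against gene span (fraction 0.3). Added after seeing the data were WT Ex-4 in place of WT CON, and Gnas in beta cells after subtraction of delta Gnas times the ratio of the 4 delta markers between beta and delta columns. The same subtraction was computed for Gnas levels in the other cell types. Software was scipy 1.17.1 for intervals, statsmodels 0.14.6 for the lowess fit, pandas 2.3.3 and numpy 2.4.6 under Python 3.11.15, and matplotlib 3.10.9 for plots.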

Additional observations from a re-analysis of the deposited data

Results flagged for a closer look

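The same contrast gave opposite directions, with both exact intervals off 1, in pairs of cell types or genotypes for Gnas and Gnai1, and none of these differences was tested because each condition is 1 pool. With FSK in WT, Gnas was 6.05 times CON in beta cells and 4.85 times in delta cells but 0.788 times in alpha cells. With Ex-4, Gnas was 0.683 times CON in WT delta cells and 1.15 times in mutant delta cells, and in the mutant it was 1.18 times in beta cells and 0.864 times in alpha cells. Delta markers in the mutant beta columns went from 3.33% of their delta level in CON (28 counts) to 7.27% in Ex-4 (62 counts). With that part of Gnas taken off the beta ratio was 0.868, for which no interval was computed. Alpha markers in these columns, at 4.64 and 4.80 CP10K, were not taken off. The part of either in the Gnas values was not tested. In untreated islets, mutant against WT, Gnas was 1.51 times in beta cells, 0.817 times in alpha cells and 0.625 times in delta cells, and the beta ratio was 1.41 with the delta marker part taken off. With FSK in alpha cells, Gnai1 was 0.57 times CON in WT and 1.98 times in the mutant, and the WT CON column, at 3.12 CP10K, was the highest of the 6.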

How the results depend on the processing

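No paired analysis was possible because each condition is 1 pooled column. All counts are of members called in beta cells, with the numbers of all kept genes called higher and lower under that setting in parentheses. The kept genes are 10093 unless stated. The cause of a change was not tested unless stated. For WT FSK 4 members were called (612 and 1964). There was 1 (Gnas) on the log2(CP10K + 1) scale (153 and 73) and 1 with a pseudocount of 1 times the median (320 and 301). Both of these settings shrink low genes by construction. At 2-fold there were 2 (299 and 1264). For mutant FSK there were 5 (1802 and 2210), against 3 on the log2(CP10K + 1) scale (517 and 273) and 3 at 2-fold (1070 and 1581). With the length trend removed there were 2, Gnas and Gnai3 (1291 and 1713). For WT Ex-4 there were 3 (1954 and 1036), against 1 on the log2(CP10K + 1) scale (95 and 220) and 1 with the larger pseudocount (498 and 485). With the 75th percentile filter there was 1 (636 and 725 of 4206). For mutant CON against WT CON there were 4 (1704 and 1766), against 1 on the log2(CP10K + 1) scale (149 and 390) and 2 with the larger pseudocount (567 and 933). Mutant Ex-4 had 0 in the main setting (49 and 99) and under every alternative. Those ranged from the log2(CP10K + 1) scale (4 and 1) to calls without the rule on intervals (447 and 567). The Gnas ratio of 6.05 for WT FSK was 4.42 on the log2(CP10K + 1) scale, 5.38 with the larger pseudocount, 7.53 centred on the median 6.76 without the length trend and 6.87 with the delta marker part taken off. That last step, added after seeing the data, turned mutant Ex-4 against mutant CON, not called, to a log2 ratio of −0.20. Its share of 35.6% was 59.2% without Gnao1, and 2 of 9 members kept their rank per length when exons replaced span. No called log2 ratio changed sign. Of 718 alternative values in beta, alpha and delta cells 629 lay within the counting interval of the original. These include all 119 values with the smaller pseudocount, which moves ratios little, while 31 of 119 lay outside with the length trend removed. Over all kept beta genes, calls with WT FSK were 23.8% higher and 41.7% once centred, and with WT Ex-4 65.4% and 53.9%.

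Depth limits Gnal and Gna11 in all columns and Gnai1 outside alpha cells, and the columns of other cell types than beta, alpha and delta, where no calls were made. Intervals cover counting error only, and the spread between islet preparations is unknown.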
